A study of Mus musculus with 12 samples.

Results

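The genes described here are 9 receptors that guide lymphocytes to and within lymphoid tissue and the gut: Ccr7, Cxcr5, Cxcr4, Ccr6, Ccr9, S1pr1, Gpr183, Itga4 and Itgb7. They were chosen by name from the 36175 genes of the deposited table, each name matched 1 row, and all 9 passed the filter on low values along with 12590 genes in all. B cells were purified from the Peyer's patches (PP), the lymphoid follicles of the small intestine, of 12 male wild-type C57BL/6JHsd mice aged 10 to 12 weeks, and bulk RNA-seq was performed on a separate library for each mouse. Of these, 6 were sham controls, in which a filament was inserted into the common carotid artery and removed at once, and 6 were stroke mice, in which the middle cerebral artery was occluded for 1 h and then reperfused, the injury that the sample labels call brain injury. Both groups received buprenorphine and carprofen for pain. B cells were purified with magnetic beads 18 h after surgery, by a B cell isolation kit that leaves a few epithelial and endothelial cells and then by CD45 beads, which select leukocytes and for which the study states a high purity. The comparison covers only the B cells that remained in PP at that time.

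B cells enter PP from the blood and are then placed in compartments by chemoattractants. CXCR5 follows CXCL13 into the follicle, CCR7 follows CCL19 and CCL21 to the T cell zone, GPR183 follows oxysterols to the outer follicle, and CXCR4 follows CXCL12 and holds germinal centre cells in the dark zone. CCR6 draws B cells towards CCL20 below the follicle epithelium, CCR9 draws cells to CCL25 in the small intestine, and S1PR1 lets lymphocytes leave along a gradient of sphingosine 1-phosphate. The integrin chains alpha 4, encoded by Itga4, and beta 7, encoded by Itgb7, pair to form the receptor for MADCAM1 on gut vessels.

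In the whole table, the lowest and highest sums of the values were 559570 and 1404340 among sham controls, and 804983 and 1020759 among stroke mice. Read numbers are not known for these libraries. All 10 B cell markers, among them Cd79a and Ms4a1, were detected in every mouse. Markers of other cells were present as well: the summed level of 8 epithelial markers was between 9.98 and 1459.9 in sham controls and between 12.2 and 613 in stroke mice, and that of 12 T cell markers between 87.6 and 168 and between 76.2 and 194. The sums of 7 plasma cell markers ran from 295 to 1487 in sham controls and from 372 to 1086 in stroke mice, and those of 8 myeloid markers from 83.4 to 468 and from 104 to 268, and both were lowest in sham control 6 and next lowest in stroke mouse 5. For 8 germinal centre markers the sums ran from 197 to 437 (sham) and from 199 to 421 (stroke), whereas 7 neutrophil markers summed to at most 8.68 and 6 stromal markers to at most 7.66 in any mouse. The 6 endothelial markers summed to 79.2 to 111, almost all of it Pecam1, which B cells also express. A pair of libraries stood apart from their groups, stroke mouse 5, with the lowest summed B cell markers (2735), and sham control 6, with the lowest summed epithelial markers and the lowest total. Sham controls 1 and 2 had the highest totals (1404340 and 1386994) and the highest summed epithelial and plasma cell markers, and the median epithelial sum was 349 in sham controls and 112 in stroke mice. Values without stroke mouse 5 or sham control 6 are given beside the results that rest on them.

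The values of all 9 receptors were compared between stroke mice and sham controls to find out whether the B cells left in PP after stroke differed in homing receptor expression. Values are normalized TPM, an abundance scaled by transcript length and by library, so levels can be set side by side between genes. S1pr1, Cxcr5 and Gpr183 had lower means in stroke mice, with 0.611, 0.676 and 0.701 times the sham level on the log2(value + 0.5) scale. Ccr6, Itgb7 and Ccr7 had lower means too, at 0.73, 0.839 and 0.848 times. Itga4 had a higher mean in stroke mice, at 1.19 times. Cxcr4 and Ccr9 were at 1.09 and 1.02 times, and for each of them the stroke and sham means were within 1 SD of each other. After Benjamini-Hochberg adjustment over all 12590 genes, 0 of the 9 receptors had an adjusted p under 0.05 (limma, adjusted p from 0.716 to 0.975), as was the case for 0% of all genes tested. At an unadjusted p under 0.05, 3 of the 9 receptors were lower in stroke mice and 0 were higher (limma), where 1.69% of all tested genes were lower and 4.42% higher, 6.12% in either direction. When each mouse was rescaled to the same total, S1pr1 alone kept an unadjusted p under 0.05, with a log2 fold change of -0.58. Gpr183 and Cxcr5 had log2 fold changes of -0.39 and -0.44. The adjusted p was 0.942 for S1pr1, Gpr183 and Cxcr5 alike (limma). The share of all genes depended on 1 library: without sham control 6, 1158 of the 12590 genes were lower and 937 higher at this threshold, compared with 213 and 557 in all mice, and 5 of the 9 receptors were lower at it, namely S1pr1, Gpr183, Cxcr5, Ccr7 and Itgb7. In all, 6 of the 9 log2 fold changes were negative, compared with 48.6% of the genes tested, and the median over the 9 receptors was -0.25 compared with 0.0069 over all genes. For 0 of the 9 receptors were the groups fully separate, which was the case for 0.437% of all genes.

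**Figure D1:**
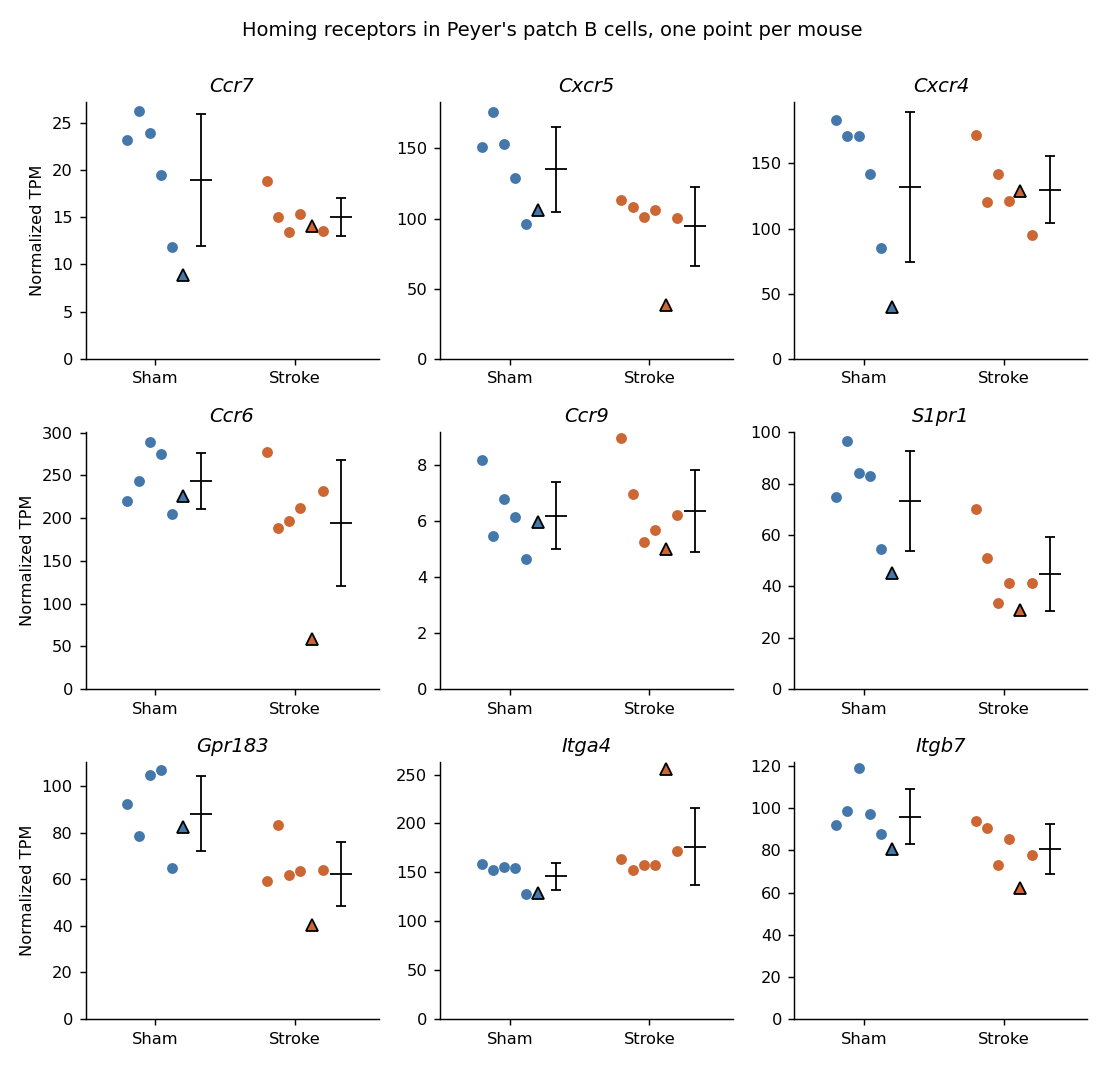
Values of the 9 homing receptors in normalized TPM, in linear panels that start at 0, with 1 point per mouse and the mean ± SD of each group (n = 6) in black. Triangles mark sham control 6 and stroke mouse 5. S1pr1 and Gpr183 are lower in most stroke mice, and stroke mouse 5 lies far below the other stroke mice for Cxcr5 and Ccr6 and far above them for Itga4.

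Ordered by level, Ccr6 came first in both groups, at 243 ± 32.6 in sham controls and 194 ± 73.5 in stroke mice (SD, n = 6). Ccr6 was above Itga4 in 6 of 6 sham controls with no overlap of their ranges, and in 5 of 6 stroke mice. In sham controls, Itga4, Cxcr5, Cxcr4, Itgb7, Gpr183 and S1pr1 followed with means from 146 down to 73.1, and each of these overlapped with the next. The order of Cxcr5 above Cxcr4, and of Itgb7 above Gpr183, held in only 3 of 6 sham controls each, so these neighbours did not differ beyond their spread. In stroke mice Cxcr4 stood above Cxcr5 in 5 of 6 mice, with means of 130 and 94.6. Ccr7 and Ccr9 were the lowest in both groups, with no overlap with their neighbours. Ccr7 was at 19.0 ± 7.02 in sham controls, and Ccr9 at 6.21 ± 1.20 (SD, n = 6).

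S1pr1, the receptor for exit from lymphoid tissue, showed the smallest p of the 9 receptors. The gene lies on chromosome 3 of GRCm38 from 115710433 to 115715072 (protein coding). Its level was 74.9, 96.7, 84.2, 82.9, 54.5 and 45.3 normalized TPM in sham controls 1 to 6, and stroke mice 1 to 6 were at 70.3, 51.1, 33.5, 41.4, 30.7 and 41.4. A total of 4 stroke mice lay below every sham control, all 6 lay below the sham mean, and the groups overlapped through stroke mice 1 and 2 and sham controls 5 and 6. The mean was 73.1 ± 19.5 in sham controls and 44.7 ± 14.4 in stroke mice (SD, n = 6). This gave a log2 fold change of -0.71 (standard error 0.23, 95% confidence interval -1.20 to -0.22, limma p = 0.00769, adjusted p = 0.716; exact permutation p = 0.0173). With 6 mice per group, the smallest two-sided p that the exact permutation test allows is 0.00216. The log2 fold change was -0.61 without stroke mouse 5 and -0.84 without sham control 6. S1pr1 is expressed in T cells as well, and the T cell marker sum was lower in stroke mice 4 and 5 than in any sham control but higher in stroke mouse 1 than in any. With the T cell marker score as a covariate the log2 fold change was -0.73, and with the epithelial marker score, a covariate chosen after the data were seen, it was -0.47 with an unadjusted p of 0.0215 (limma). In these bulk samples, fewer cells that carry a receptor and less of its RNA per cell cannot be told apart.

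Gpr183, the oxysterol receptor EBI2 that leads B cells to the outer follicle, followed. It is located on chromosome 14 from 121952551 to 121965195, within the span of Ubac2. Sham controls 1 to 6 were at 92.3, 78.5, 105, 107, 64.7 and 82.5, and stroke mice 1 to 6 at 59.2, 83.6, 61.9, 63.8, 40.6 and 64.0 normalized TPM. Except for stroke mouse 2, all stroke mice lay below every sham control. The mean was 88.3 ± 16.3 in sham controls compared to 62.2 ± 13.7 in stroke mice (SD, n = 6). The log2 fold change was -0.51 (standard error 0.17, 95% confidence interval -0.89 to -0.14, limma p = 0.0107, adjusted p = 0.748), and the exact permutation p was 0.0173. It was -0.40 without stroke mouse 5, whose value was the lowest of all 12 mice.

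Cxcr5, the follicle receptor and a marker of follicular B cells, is on chromosome 9 from 44511787 to 44561877 and overlaps Bcl9l. Its level in sham controls 1 to 6 was 151, 176, 153, 129, 96.4 and 106 normalized TPM. In stroke mice 1 to 6 it was 113, 108, 101, 106, 38.3 and 100.1. Leaving aside stroke mouse 5, the stroke values were close together, between 100.1 and 113. Sham control 5 lay below these and sham control 6 among them, whereas the other 4 sham controls were above every stroke mouse. The group means were 135 ± 30.6 and 94.6 ± 28 (SD, n = 6). The log2 fold change was -0.56 (standard error 0.26, 95% confidence interval -1.11 to -0.01, limma p = 0.0454, adjusted p = 0.791; exact permutation p = 0.039). Without stroke mouse 5 the log2 fold change was -0.32 and its unadjusted p by limma was no longer under 0.05. That was also the case when sham control 1, 2, 3 or 4 or stroke mouse 3 or 6 was left out, and with the epithelial marker score as a covariate, which gave a log2 fold change of -0.40.

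Ccr7, which guides cells to the T cell zone, is on chromosome 11 from 99144196 to 99155077. Its level was 23.2, 26.3, 23.9, 19.5, 11.9 and 8.92 normalized TPM in sham controls 1 to 6, compared to 18.8, 15, 13.4, 15.3, 14.1 and 13.5 in stroke mice. The first 4 sham controls were above all stroke mice and the last 2 were below all of them, so that the stroke mice lay between. The coefficient of variation was 37.0% in sham controls and 13.3% in stroke mice. The difference was not larger than the spread between mice, with a log2 fold change of -0.24 (95% confidence interval -0.75 to 0.28, limma adjusted p = 0.859; exact permutation p = 0.372). It was -0.43 without sham control 6, where its unadjusted p by limma was under 0.05 (adjusted p = 0.286), -0.13 without sham control 2 and -0.02 with the epithelial marker score as a covariate.

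Cxcr4, on chromosome 1 from 128588199 to 128592293, had the widest spread among sham controls, with 183, 171, 171, 142, 85.4 and 39.7 normalized TPM in sham controls 1 to 6 and a coefficient of variation of 43.5%. Stroke mice 1 to 6 were at 172, 120.2, 142, 121, 129 and 94.9. The groups overlapped: stroke mice 2, 4, 5 and 6 lay below sham controls 1 to 4, and all stroke mice lay above sham controls 5 and 6. The means were 132 ± 57.4 and 130 ± 25.8 (SD, n = 6). On the log2 scale, where the low value of sham control 6 weighs more than in the mean, the fold change was 0.12 (95% confidence interval -0.59 to 0.84, limma adjusted p = 0.945; exact permutation p = 0.794). Its sign was negative, at -0.19, without sham control 6, and with the epithelial marker score as a covariate it was 0.43.

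Among the receptors of the mucosal sites, Ccr6 is on chromosome 17 from 8236043 to 8257141. Sham controls 1 to 6 were at 220.3, 244, 289, 275, 205 and 226 normalized TPM, and stroke mice 1 to 6 at 277, 188, 197, 212, 58.9 and 232. The value of stroke mouse 5 was less than that of any other mouse, and the other stroke mice averaged 221 ± 35.6 (SD). Its log2 fold change was -0.45 in all mice (95% confidence interval -1.10 to 0.19, limma adjusted p = 0.800; exact permutation p = 0.136) and -0.14 without stroke mouse 5. Ccr9 is on chromosome 9 from 123678439 to 123784330 and overlaps Lztfl1 and Slc6a20a among others. It was low in every mouse, from 4.66 to 8.18 normalized TPM in sham controls and from 5.02 to 8.97 in stroke mice. Ccr9 had a log2 fold change of 0.03 with a 95% confidence interval from -0.31 to 0.37 (limma adjusted p = 0.975; exact permutation p = 0.868).

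The integrin chains differed in the direction of their log2 fold changes, and neither passed the limma test. Itga4 is on chromosome 2 from 79255426 to 79333123 and overlaps Cerkl, and Itgb7 is on chromosome 15 from 102215995 to 102231944. Itga4 was at 158, 152, 155, 154, 128 and 129 normalized TPM in sham controls 1 to 6, while stroke mice 1 to 6 were at 164, 152, 157, 157, 256 and 172. All 6 stroke mice lay above the sham mean and 3 lay above every sham control. The log2 fold change was 0.25 (standard error 0.14, 95% confidence interval -0.04 to 0.55, limma p = 0.087, adjusted p = 0.791), with an exact permutation p of 0.026. It was 0.14 without stroke mouse 5 and 0.38 after rescaling to equal totals. Itgb7 was at 92.1, 98.8, 119, 97.3, 87.8 and 80.7 in sham controls compared to 94.1, 90.6, 73.0, 85.4, 62.4 and 78.0 in stroke mice. All 6 stroke mice lay below the sham mean and 3 below every sham control. Its log2 fold change was -0.25 (standard error 0.13, 95% confidence interval -0.54 to 0.03, limma p = 0.0747, adjusted p = 0.791; exact permutation p = 0.0519). For Itgb7 it was -0.30 without sham control 6, where its unadjusted p by limma was under 0.05 (adjusted p = 0.289), -0.18 without stroke mouse 5 and -0.13 after rescaling to equal totals.

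**Figure D2:**
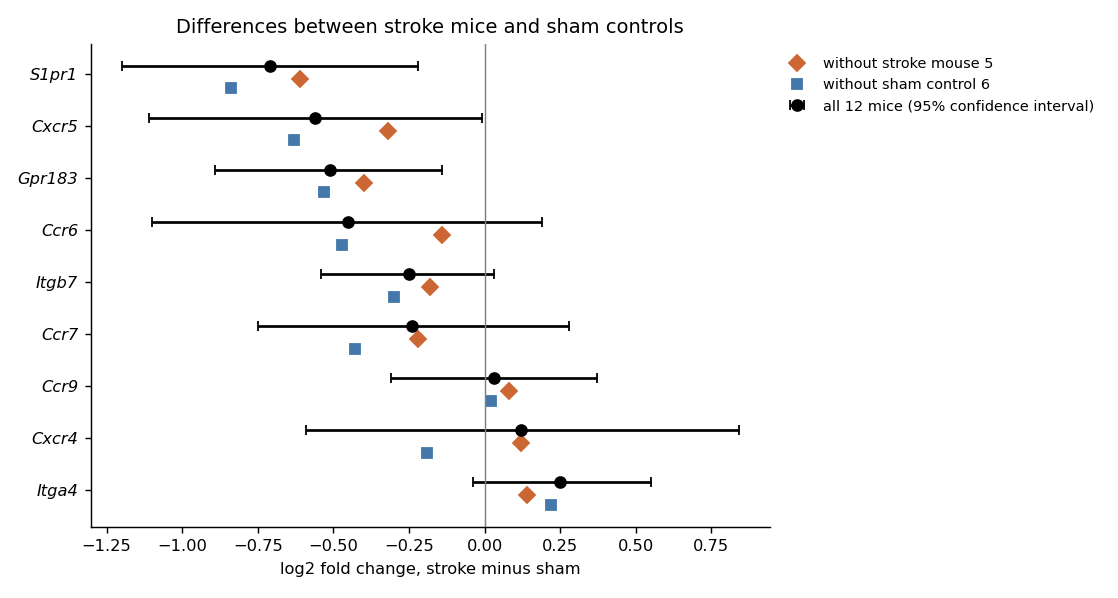
Log2 fold change of each receptor, stroke minus sham, on the log2(value + 0.5) scale. Circles and bars give the limma estimate and 95% confidence interval from all 12 mice, diamonds the estimate without stroke mouse 5 and squares that without sham control 6. The intervals of S1pr1, Gpr183 and Cxcr5 lie below 0, and the estimate of Ccr6 moves from -0.45 to -0.14 without stroke mouse 5.

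Ratios within a mouse remove any factor common to all its genes, and they are given as values with no test. For Itga4 to Itgb7, sham controls 1 to 6 had ratios of 1.71, 1.54, 1.30, 1.58, 1.46 and 1.6, and stroke mice 1 to 6 had 1.74, 1.68, 2.15, 1.84, 4.1 and 2.21. In 5 of 6 stroke mice it was above every sham control, and stroke mouse 2 was just below sham control 1. The mean log2 ratio was 0.61 ± 0.14 in sham controls and 1.12 ± 0.48 in stroke mice (SD, n = 6), a difference of 0.51 that became 0.33 without stroke mouse 5. The S1pr1 to Ccr7 ratio was 3.23, 3.68, 3.51, 4.25, 4.56 and 5.08 in sham controls and 3.74, 3.41, 2.49, 2.70, 2.17 and 3.07 in stroke mice. Of the stroke mice, 4 lay below every sham control, and the mean log2 ratio was 2.0 ± 0.25 in sham controls and 1.53 ± 0.29 in stroke mice (SD, n = 6). Sham control 6 had the highest and stroke mouse 5 the lowest ratio of all mice. The difference of -0.47 became -0.39 without stroke mouse 5 and -0.33 without both of these mice.

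For the ratios to Cxcr5 the groups overlapped more. The Cxcr4 to Cxcr5 ratio had a median of 1.03 in sham controls and 1.27 in stroke mice, with 0.376 in sham control 6 as the lowest and 3.37 in stroke mouse 5 as the highest value of all mice. Its mean log2 ratio was -0.18 ± 0.63 in sham controls and 0.52 ± 0.65 in stroke mice (SD, n = 6), a difference of 0.69 that became 0.20 without these 2 mice. The Ccr7 to Cxcr5 ratio was between 0.0845 and 0.156 in sham controls and between 0.132 and 0.166 in the stroke mice other than stroke mouse 5, which was at 0.369. The Gpr183 to Cxcr5 ratio had medians of 0.678 and 0.625, with overlapping ranges.

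**Figure D3:**
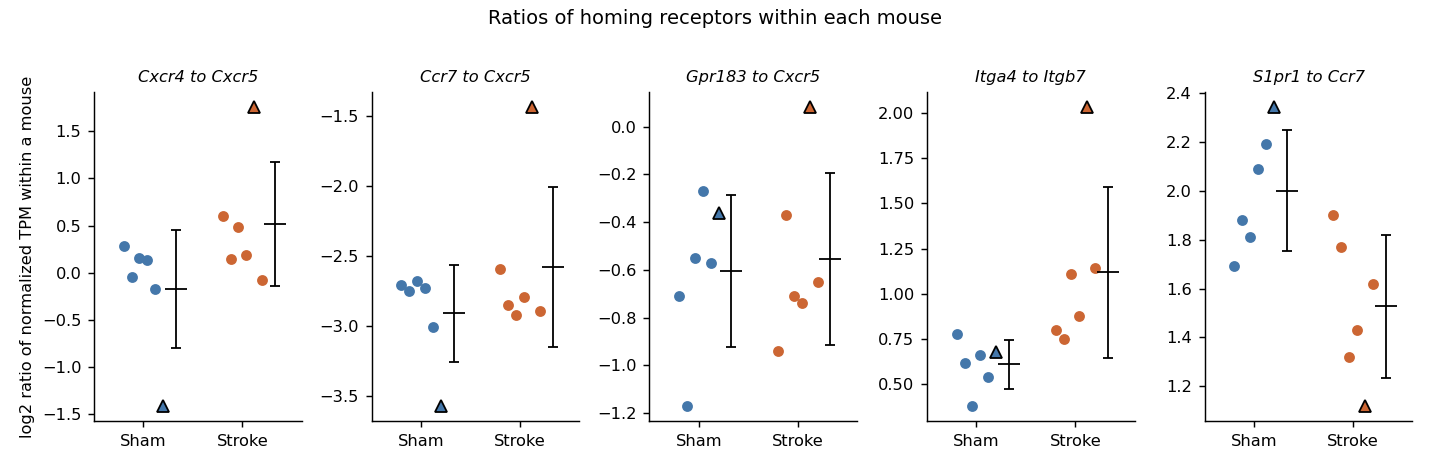
Log2 ratio of the normalized TPM of paired receptors within each mouse, with 1 point per mouse, the mean ± SD of each group (n = 6) in black, triangles for sham control 6 and stroke mouse 5, and a scale of its own in each panel. The Itga4 to Itgb7 ratio is higher and the S1pr1 to Ccr7 ratio lower in most stroke mice.

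Stroke mouse 5 was the lowest stroke mouse for 6 of the 9 receptors and the lowest of all 12 mice for 5, namely Cxcr5, Ccr6, S1pr1, Gpr183 and Itgb7. For Itga4 it was the highest of all mice, whereas its Cxcr4 (129) and Ccr7 (14.1) were within the range of the other stroke mice. Sham control 6 was the lowest of all mice for Ccr7 and Cxcr4. The T cell marker sum was 86.6 in stroke mouse 5 and 114 in sham control 6, compared with 76.2 to 194 over all mice, and the part of these libraries' makeup in their receptor levels was not tested. When both mice were left out, S1pr1, Gpr183 and Cxcr5 had log2 fold changes of -0.74, -0.41 and -0.39, and 0 of the 9 receptors had an adjusted p under 0.05 (limma, lowest adjusted p = 0.267). An unadjusted p under 0.05 was then reached by 3 of 9 receptors, all lower in stroke mice, and by 12.9% of all genes, with 813 of the 12590 lower. This pair was chosen after the data were seen.

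The proximal promoters are shown for the integrin pair, whose log2 fold changes had opposite signs, and for Gpr183, the receptor with the smallest p among the 6 with an entry in the promoter table. They are RefSeq sequences of GRCm38.p6, 250 bases up to the RefSeq start site, 5′ to 3′ on the gene's strand, with the letters CACCC, the core of KLF sites, or GGGTG, its reverse complement, in capitals.
Itga4, chr2:79255176-79255425, plus strand: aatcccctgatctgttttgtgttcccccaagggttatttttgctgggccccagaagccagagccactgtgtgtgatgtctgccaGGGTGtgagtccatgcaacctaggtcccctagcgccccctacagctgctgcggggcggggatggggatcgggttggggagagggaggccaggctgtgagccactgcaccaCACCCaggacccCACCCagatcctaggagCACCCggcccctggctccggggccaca
Itgb7, chr15:102231936-102232185, minus strand: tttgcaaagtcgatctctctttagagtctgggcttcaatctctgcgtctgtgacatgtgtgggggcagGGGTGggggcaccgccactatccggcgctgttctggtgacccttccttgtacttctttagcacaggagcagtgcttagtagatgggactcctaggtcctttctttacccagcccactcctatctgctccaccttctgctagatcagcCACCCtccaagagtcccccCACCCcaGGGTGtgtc
Gpr183, chr14:121965194-121965443, minus strand: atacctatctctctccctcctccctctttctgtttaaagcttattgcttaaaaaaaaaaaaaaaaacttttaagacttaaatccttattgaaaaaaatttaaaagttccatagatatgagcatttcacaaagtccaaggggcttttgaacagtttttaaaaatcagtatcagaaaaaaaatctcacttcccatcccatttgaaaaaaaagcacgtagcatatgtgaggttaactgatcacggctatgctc
The RefSeq start sites of Itgb7 and Gpr183 lie within the GENCODE spans given above, so the last bases of these windows, with the match of Itgb7 nearest to the start, are inside those spans. CACCC on either strand was found at 4 places in each integrin promoter and at 0 in that of Gpr183. Of all 32851 windows of this length in the table, 52.0% hold it, and so did 4 of the 7 windows of the 6 receptors. GTAAACA, a FOXO motif, searched on both strands, was in 0 of the 7 windows and in 3.17% of all. CAGGTG, an E-box bound by E proteins such as TCF3, was in 1 of the 7, that of Ccr9, and in 17.2% of all, again on both strands. The 3 motifs cannot overlap in the same letters except at their ends, and these matches describe letters only. The window of Gpr183 had a GC content of 32.0%, compared with 64.0% for Itga4 and 56.0% for Itgb7.

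The rest of the homing pathway was described with lists of ligands, further receptors, signalling genes and transcription factors. Of the ligands and the enzymes that make or remove them, 8 of 19 entries reached 1 in every mouse and were tested. Cxcl12, Ccl19, Ccl20, Ch25h and Cyp7b1 were below 1 in every mouse, while Cxcl13, Madcam1, Sphk1 and 1 of the entries of Ccl21a were above 1 in some mice only, at up to 15.9, 3.04, 2.33 and 1.17 normalized TPM. The libraries were made from purified B cells, so these values do not give ligand levels in the PP tissue. None of the 8 had an unadjusted p under 0.05 (limma), where 6.12% of all tested genes had one, so the count is near that share. The median log2 fold change was -0.12, compared with 0.0069 over all genes. Sgpl1, the lyase that degrades sphingosine 1-phosphate and keeps the exit gradient, had the smallest p of them, with 86.1 ± 34.7 in sham controls and 58.5 ± 6.84 in stroke mice (SD, n = 6; limma adjusted p = 0.791). Ccl25, the ligand of CCR9 made by small intestinal epithelium, was at 45.2 ± 32.2 and 22.9 ± 6.96 (SD, n = 6; limma adjusted p = 0.793), and Ccl28 at 4.55 ± 0.37 and 3.82 ± 0.75 (SD, n = 6). The summed epithelial markers were highest in sham controls 1 and 2, at 1427 and 1459.9, and their part in the Ccl25 values was not tested.

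Of 17 tested further trafficking receptors and adhesion molecules, 0 had an unadjusted p under 0.05 (limma), where 6.12% of all tested genes had one. In a list this short, 0 is near that share. The median log2 fold change was -0.04. Cd22, an inhibitory receptor of B cells, had the highest level, with 616 ± 83.8 normalized TPM in sham controls and 636 ± 129 in stroke mice (SD, n = 6) and a log2 fold change of 0.03. Cnr2, the cannabinoid receptor CB2, Itga5, the alpha 5 integrin chain, and Gpr174, a lysophosphatidylserine receptor, had the smallest p values, with log2 fold changes of -0.42, 0.47 and -0.18. Among 29 tested genes for receptor signalling and integrin activation, 0 had an unadjusted p under 0.05 either (limma, 6.12% of all tested genes). The median was -0.04. Elmo1, a partner of DOCK2 in the activation of Rac, had a log2 fold change of 0.22, and Rgs14 and Rgs19, which shorten G protein signals, had -0.18 and -0.29. Rac2, a small GTPase of leukocyte migration, was at 492 ± 123 in sham controls and 432 ± 85.0 in stroke mice (SD, n = 6), and Arhgef1, a guanine nucleotide exchange factor, had a log2 fold change of 0.19.

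Of the 17 tested transcription factors that act on homing genes, 1 had an unadjusted p under 0.05 (limma), in the higher direction, where 4.42% of all genes were higher, and 12 of 17 had a negative log2 fold change, where 48.6% of all genes had one. That gene was Tcf3, which encodes the E proteins E12 and E47 of the B cell lineage. It was at 105 ± 10 normalized TPM in sham controls and 141 ± 17.2 in stroke mice (SD, n = 6), with ranges of 92.0 to 123 and 119 to 162 that overlapped only slightly. Its log2 fold change was 0.41 (standard error 0.11, limma p = 0.00294, adjusted p = 0.716; exact permutation p = 0.00433). Nfkb2, of the noncanonical NF-kB pathway, and Nr4a1, which antigen receptor signals induce, had log2 fold changes of -0.44 and -0.49 (limma adjusted p = 0.791 for each). Bach2 and Ets1 had the highest levels in this list, with log2 fold changes of -0.10 and -0.07. Klf2, which drives S1pr1 transcription, had a log2 fold change of -0.20 and Foxo1, which acts upstream of Klf2, of -0.01; both are named outside the naming rule, after their values were seen.

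**Figure D4:**
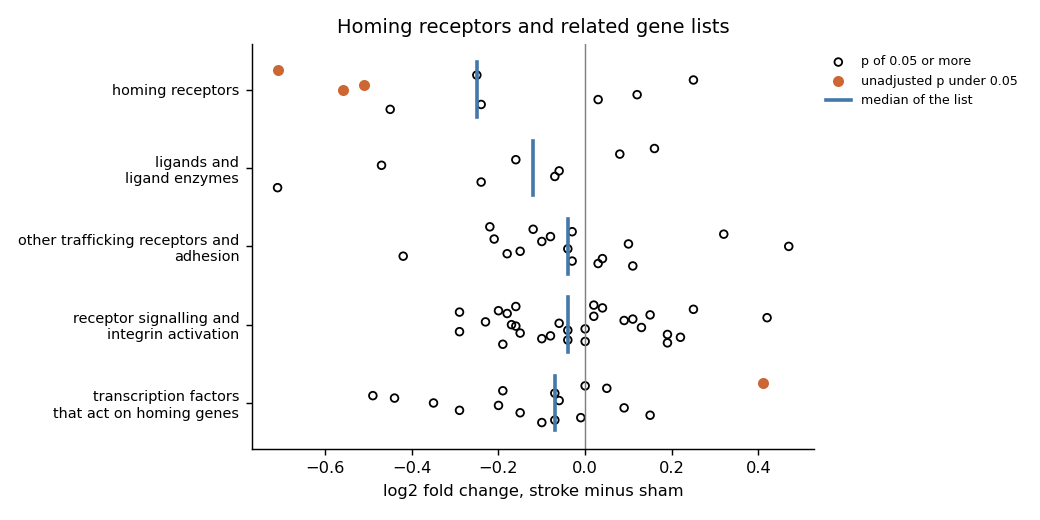
Log2 fold changes (stroke minus sham) of the 9 homing receptors and of the tested genes of 4 related lists, with 1 point per gene and a bar at the median of each list. Filled points have an unadjusted p under 0.05 (limma), which are S1pr1, Cxcr5 and Gpr183 among the receptors and Tcf3 among the transcription factors.

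The genes whose values followed each receptor most closely over the 12 mice, after the group means were taken away, are given with Pearson's r as a description. All libraries share the same preparation, and these genes were picked as the highest of 12590, so that high values of r are found for any gene. For S1pr1 they were Leng9 (r = 0.976) and Arhgef3 (r = 0.968), for Gpr183 Map3k8 (r = 0.974) and Ift140 (r = 0.948), and for Cxcr5 Rnf13 (r = 0.977) and Map3k1 (r = 0.960). Ccr6 was followed by Pglyrp2 (r = 0.989) and Irf2 (r = 0.983), Ccr7 by Hacd3 (r = 0.963) and Ski (r = 0.959), and Cxcr4 by Vcpip1 (r = 0.980) and Kif16b (r = 0.970). For Itga4 they were Rad54l2 (r = 0.966) and Tapt1 (r = 0.952), and for Itgb7 Zcchc24 (r = 0.941) and Gpr18 (r = 0.927). Ccr9 was followed by Cd8a (r = 0.921), a gene of cytotoxic T cells, and Arhgef11 (r = 0.905). In the 10 mice without stroke mouse 5 and sham control 6, r was lower for every pair named other than those of Ccr9, with the lowest values for Cxcr5 with Map3k1 (0.786) and Itga4 with Rad54l2 (0.792), while Ccr9 was at 0.933 with Cd8a and 0.930 with Arhgef11. Ccr9 is expressed by T cells of the small intestine, and the share of T cell RNA in its values was not tested.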

How the data were processed

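RNA-seq values were taken from the table deposited by the authors, an expression signal per gene labelled as normalized TPM. According to the submitters' processing notes and the methods, the authors used Trimmomatic 0.39 for trimming, ran kallisto 0.48.0 on GRCm38 to quantify transcripts and tested genes with sleuth 0.30.0 in R 4.1.2. The column sums differ between mice, so the values were not treated as plain TPM. Read counts are not given, so library depth is not known and counting error cannot be stated. Whether the libraries kept strand is not given in the sources used here, so overlapping genes cannot be told apart with certainty.

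All genes that reached 1 in each of the 12 mice entered a fit of log2(value + 0.5) by limma 3.58.1 (R 4.3.3), two-sided, without covariates, with p-values adjusted by Benjamini-Hochberg over 12590 genes. A fold change on this scale understates changes of low genes. Single genes were also compared by exact two-sided permutation tests. Confidence intervals of 95% come from limma. The limma code was tested on simulated data. The receptors, lists and tests were chosen with earlier results of these data known. Named are the 9 receptors, of each list the 3 genes with the smallest p and the 2 with the highest level, the 2 genes most like each receptor, and marker genes; 1 gene that this rule names is not reported here. Promoter sequences come from RefSeq and gene positions from GENCODE release M21, both on GRCm38. Mouse numbers 1 to 6 recur in both groups, and the labels do not state what they mark. Alternatives were other pseudocounts, filters, scalings, a replicate block, sample quality weights, marker scores as covariates and leaving out each mouse in turn. The paper's source lists and test results were not used here.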

Additional observations from a re-analysis of the deposited data

Results flagged for a closer look

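Groups of 6 mice were searched for a mouse far from the others by Dixon's ratio (the gap to the nearest mouse divided by the range, with a 95% limit of 0.625 for 6 mice) on the log2 scale, for 18 groups of receptor values and 10 groups of ratios. Chance alone gives about 1 in 20 groups. Stroke mouse 5 was set apart for 3 receptors, with a ratio of 0.885 for Cxcr5, 0.748 for Ccr6 and 0.763 for Itga4. Some within-mouse ratios that share these genes set it apart too, with 0.629 for Cxcr4 to Cxcr5, 0.782 for Ccr7 to Cxcr5 and 0.695 for Itga4 to Itgb7. The Gpr183 to Cxcr5 ratio, which also shares Cxcr5, did not pass the limit. Sham control 6 was set apart for Cxcr4 to Cxcr5, with 0.732. These 7 findings are not independent, since 4 of them rest on ratios of the same values.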

How the results depend on the processing

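Over 26 alternatives, S1pr1, Gpr183, Cxcr5, Ccr6, Ccr7 and Itgb7 kept a negative and Itga4 a positive log2 fold change, and 0 of the 9 receptors had an adjusted p under 0.05 under any of them (limma, from 0.158 with sample quality weights to 0.991 for S1pr1 and from 0.236 to 0.991 for Gpr183). Ccr9 gave no value with a minimum of 5 in every mouse. The sign was reversed for Cxcr4 with sample quality weights (-0.13) and without stroke mouse 5 and sham control 6 (-0.19), and for Ccr9 with quantile normalization (-0.0084) and with the T cell score (-0.00086). With each mouse left out in turn, Cxcr4 ranged from -0.19 to 0.25 and Ccr9 from -0.07 to 0.11. An unadjusted p under 0.05 was reached by S1pr1 under all 26 alternatives, by Gpr183 under 24 and by Cxcr5 under 14. With each mouse left out in turn, 2 to 5 of the 9 receptors reached it, with 5 without sham control 6, where 16.6% of all genes reached it (6.12% in all mice). Rescaling to equal totals, with or without immunoglobulin genes, left S1pr1 alone.

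Over all genes, an adjusted p under 0.05 was reached by 0 genes, by 1 with at least 1 in at least 6 mice, and by 0 to 1 with each mouse left out in turn (1 without sham control 1). The 770 genes with an unadjusted p under 0.05 became 1768 with no filter, 418 rescaled to equal totals, 414 without immunoglobulin genes and rescaled, 1569 with sample quality weights, 1630 without stroke mouse 5 and sham control 6, and 564 to 2095 with each mouse left out in turn (2095 without sham control 6). Of the 770, 557 were higher and 213 lower, compared with 348 and 70 after rescaling to equal totals, 347 and 67 without immunoglobulin genes and rescaled, 378 and 327 after quantile normalization, 866 and 703 with sample quality weights, 937 and 1158 without sham control 6 and 817 and 813 without stroke mouse 5 and sham control 6. Rescaling moved the median of all genes to 0.127 and S1pr1 to -0.58. The causes were not tested.

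With the replicate block, 1174 genes had an unadjusted p under 0.05. Deviations of same-numbered mice correlated between 0.0134 and 0.494, with a mean of 0.218 compared with -0.0414 for other pairs. Of the 12 mice, 4 correlated best with their own number. The labels do not state what the numbers mark, so they were not taken as pairs in the main fit. Whether same-numbered mice share a batch is not known. The block changed no call at an adjusted p under 0.05 for the receptors (lowest 0.392).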
